A study of Mus musculus with 6 samples.

Results

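The stromal spots of uterine sections were compared between mice given diethylstilbestrol (DES, a synthetic estrogen) as newborns and control mice given the corn oil (CO) vehicle. Spatial RNA was measured on Visium slides, on which each spot captures the RNA of the several cells above it. The stromal spots were taken as the spots that the authors' clustering placed in the cluster called stroma in each section, and they numbered 632 of the 6199 spots in all. CO A held 101 of 1433 spots, CO B 188 of 1834, DES A 211 of 1575 and DES B 132 of 1357. The CD-1 mice received corn oil or 1 mg/kg/day of DES under the skin on days 1 to 5 after birth, and the uteri were taken at 12 months, with the CO mice in estrus. Each section came from 1 mouse, so 2 CO and 2 DES sections entered each test. The DES blocks were picked for sections that held adenocarcinoma, CO B had a tissue fold, and clusters were less clear in DES B. Of the 6 samples in the series, the remaining pair are single-cell libraries pooled from 2 CO mice and from 4 DES mice. These served only as references, since the DES library held 1 annotated stromal cell against 1326 in the CO library.

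The uterine stroma is the connective tissue between the epithelium and the muscle layers. Its fibroblasts make collagen and proteoglycans, carry receptors for estrogen and progesterone, and pass growth factor and Wnt signals to the epithelium, and vessels and immune cells run through it. Exposure to DES around birth is known to leave lasting changes in the epithelium of the mouse reproductive tract, among them basal and squamous cells that the normal uterine lining lacks. A spot at the edge of the stroma can hold part of a gland or of the lining, and fewer cells of a type cannot be told apart from less RNA per cell in such a spot.

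The summed stromal spots held 558480 and 922552 unique molecular identifiers (UMIs, each a counted RNA molecule) for CO sections A and B, and 1015381 and 346412 for DES sections A and B. Pairs of values below keep this order, A before B. Levels are given as UMIs per 1000000 UMIs of those spots (CPM), from capture at the 3′ end of transcripts. The median spot held 5510, 4523.5, 4360 and 2216 UMIs in the same order. Pairs of sections shared between 0 and 19 stromal spot barcodes, which mark slide positions.

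The stromal spots stood above the other spots of their section in stromal markers, while the DES stromal spots also carried muscle markers, most of all in DES B. The clusters were formed on these same counts, so the levels of these markers describe the spots and do not test the label. The 12 stromal markers, which include the proteoglycan Dcn and the transcription factor Foxl2, summed to 6559 and 5795 CPM in the CO stromal spots and to 3946 and 3184 CPM in the DES stromal spots. These sums lay above those of the other spots of the same section, which were 3045, 3223, 1355 and 1158 CPM. The 12 smooth muscle markers summed to 1767 and 1458 CPM in CO stromal spots, against 21707 and 25119 CPM in the other CO spots. They summed to 5820 and 15427 CPM in DES stromal spots, against 5644 and 6009 CPM in the other DES spots. In both DES sections the muscle markers thus stood higher in the spots called stroma than outside them, by little in DES A, which goes against the label, and these clusters were not checked against the histology here. When each section's spots were ordered by a score of stromal markers less muscle and epithelial ones, 80.2% and 74.5% of the CO stromal spots fell in the top 15% of their section, but 41.7% and 24.2% of the DES stromal spots did. The 10 epithelial markers summed to 1513 and 1142 CPM in the CO and to 1683 and 849 CPM in the DES stromal spots, so the groups overlapped.

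**Figure D1:**
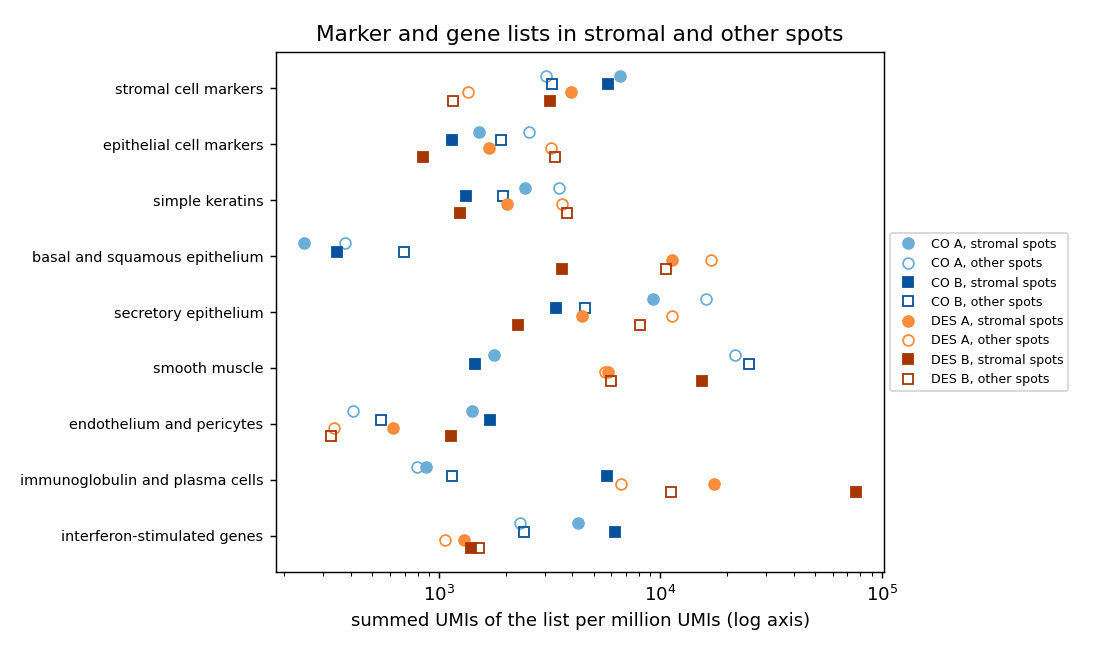
Summed UMIs of 9 gene lists per 1000000 UMIs (log axis) in the stromal spots (filled) and other spots (open) of each section, with 1 point per section. Smooth muscle markers stand at 1767 and 1458 CPM in CO stromal spots and at 5820 and 15427 CPM in DES stromal spots, while interferon-stimulated genes stand at 4236 and 6226 CPM against 1295 and 1400 CPM.

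Of 8914 genes tested with edgeR, 71 (0.796%) were higher and 60 (0.673%) lower in DES stromal spots at an adjusted p under 0.05. At an unadjusted p under 0.05, 628 were higher and 566 lower. The median log2 fold change over all genes tested was 0.00. The CO and DES sections did not overlap in any of the 131 genes, nor in 3820 (42.9%) of the genes tested. Most rises were epithelial, smooth muscle, signal and matrix genes, and most falls interferon-response, luminal epithelial, signal and vessel genes. These functions were assigned after the values were seen and so serve as a description.

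The number of calls varied with the section left out. Each such fit has a lone section in 1 group, taken to vary like the pair of the other group, so its spread comes from that pair alone and from what edgeR shares over genes. Without DES A 38 genes were higher and 2 lower, without DES B 59 and 27, without CO A 158 and 199, and without CO B 48 and 79. Of the 131 genes 18 passed again without DES A, 59 without DES B, 65 without CO B and 128 without CO A, and none of those tested changed direction in these settings. Without DES A, which leaves the shallowest section alone for DES, the genes that passed again were 8 of 11 muscle genes, 2 of 19 squamous and basal, 2 of 8 secretory, 2 of 10 luminal, 1 of 12 matrix, 1 of 18 signal, 0 of 19 interferon and 0 of 7 vessel genes. Without DES B they were 15 of 19 squamous and basal, 6 of 8 secretory, 8 of 12 matrix, 4 of 11 muscle, 4 of 10 luminal, 5 of 18 signal, 5 of 19 interferon and 2 of 7 vessel genes. Without CO B they were 1 of 11 muscle, 6 of 12 matrix, 6 of 18 signal, 12 of 19 squamous and basal, 4 of 8 secretory, 12 of 19 interferon, 5 of 7 vessel and 9 of 10 luminal genes.

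**Figure D2:**
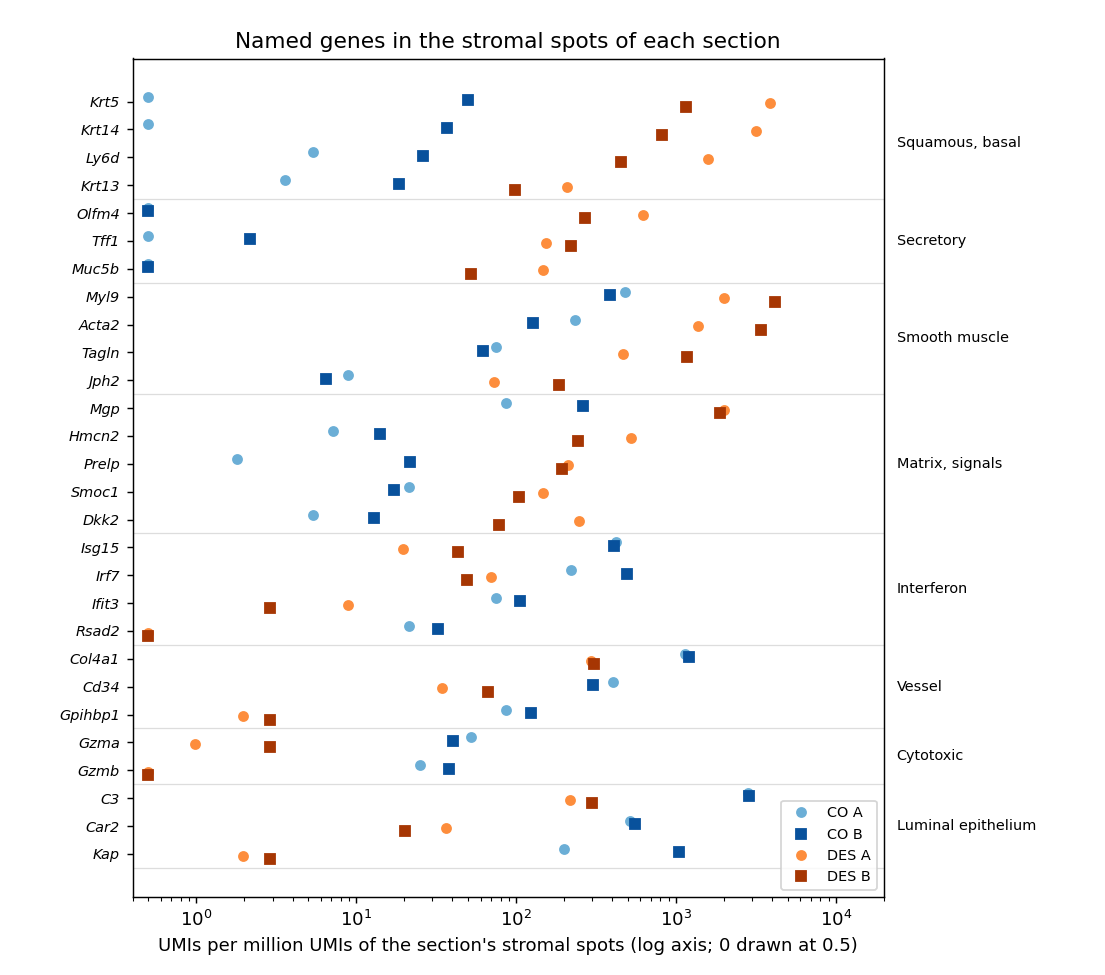
Level of 28 genes in the stromal spots of each section, in CPM on a log axis with 0 drawn at 0.5, with 1 point per section and no averaging. Both DES sections stand to the right of both CO sections for the genes from Krt5 down to Dkk2, and to their left for those from Isg15 down to Kap.

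Genes of squamous and basal epithelium made up 19 of the 71 rises, and none of the 60 falls. Krt5, a keratin of basal cells (chr15:101707070-101712898, minus strand, mm10), was at 0 and 49.9 CPM in CO and at 3853 and 1163 CPM in DES stromal spots. Its UMIs lay in 204 of the 211 DES A spots and 107 of the 132 DES B spots. The DES sections did not overlap the CO sections, and the log2 fold change was 6.44 ± 1.16 (SE, 2 sections per group), with an adjusted p of 0.0392. The adjusted p was 0.351 by DESeq2 and 0.0808 without DES A.

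Krt14, the keratin that pairs with Krt5, was at 0 and 36.9 CPM in CO and at 3153 and 817 CPM in DES. Ly6d, a surface protein of stratified epithelium, was at 5.4 and 26.0 CPM in CO and at 1592 and 456 CPM in DES. In both genes DES A stood highest and the groups did not overlap, and the log2 fold changes were 6.51 ± 1.12 and 5.82 ± 0.77. Krt13, a keratin of the upper layers of moist squamous epithelium, rose from 2 and 17 UMIs to 213 and 34 UMIs. Sprr1a, a building block of the cornified envelope, rose from 82.4 and 29.3 CPM to 719 and 283 CPM. Krt6a and Krt17, keratins of activated and wounded epithelium, had 0 and 2 UMIs each in CO, and 239 and 14 UMIs and 65 and 13 UMIs in DES. Their CPM over the DES sections was 138 times (95% interval 37.7 to 1140) and 42.4 times (11.4 to 356) that over the CO sections. DES A carried most of the Krt6a UMIs, and without it the ratios were 29.9 (6.87 to 271) and 27.8 (6.29 to 254). Without CO B, which held the UMIs of the CO group, the genes were at least 34.6-fold and 10.7-fold higher.

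Fat2, a large cadherin of squamous epithelium, Nccrp1, an F-box protein of the same tissue, and Trex2, a nuclease of keratinocytes, had no UMI in either CO section. Against a floor of 3 UMIs over the CO group they were at least 18.1-fold, 19.6-fold and 16.3-fold higher in DES, and without CO B, which leaves fewer CO UMIs in all, at least 6.83-fold, 7.38-fold and 6.15-fold. Other squamous or basal genes that rose were the hemidesmosome collagen Col17a1 (log2 fold change 4.96) and the urothelial plaque protein Upk1a (5.16). S100a14, of the S100 family (3.77), and the water and glycerol channel Aqp3 (5.12) rose too.

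From the list of 22 basal and squamous genes, 14 could be tested and 8 rose, with a median log2 fold change of 4.20, or 4.13 with genes absent from CO at their bound. The filter on low counts lets in a gene that is high in 1 group only. Without it 20 were tested, 19 were above 0 and 1 below, 14 rose and the median was 4.04. The summed list stood at 245 and 346 CPM in CO and at 11281 and 3611 CPM in DES stromal spots. In both DES sections it was higher still outside the stromal spots, at 17014 and 10606 CPM. No member passed edgeR's interaction test of stromal against other spots, with 0 at an unadjusted p under 0.05 and 0 by DESeq2. Members with 0 UMIs in CO stromal spots had wide estimates there, such as 5.40 ± 3.34 (SE) for Fat2. Without DES A 1 member passed, and with the other sections left out in turn 6 to 11 did.

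Secretory and mucosal genes gave 8 rises. Olfm4, olfactomedin 4, a secreted glycoprotein of crypt and gland cells, had 0 UMIs in both CO sections and 631 and 93 UMIs in DES A and DES B, or 621 and 268 CPM. It was at least 262-fold higher, or 98.97-fold without CO B and 133-fold without DES A, and its UMIs lay in 156 of 211 and in 59 of 132 spots. Muc5b, a gel-forming mucin, had 0 UMIs in CO and 150 and 18 UMIs in DES, and was at least 60.9-fold higher, or 22.97-fold without CO B and 25.7-fold without DES A. Tff1, a trefoil peptide that goes with mucins, had 0 and 2 UMIs in CO and 157 and 76 UMIs in DES, a ratio of 127 (95% interval 34.7 to 1050), which was 78.9 without CO A and at least 31.9 without CO B. Spdef, a transcription factor of goblet cells, was at least 16.3-fold higher, or 6.15-fold without CO B and 10.2-fold without CO A. Il33, an alarmin stored in the nuclei of barrier cells, rose from 25.1 and 14.1 CPM to 209 and 86.6 CPM.

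Olfm4, Muc5b and Tff1 were the 3 of 11 tested members of the 22-gene secretory list that rose, and none fell, with 4 at an unadjusted p under 0.05 in each direction and 1 lower by DESeq2. The list's median log2 fold change was 0.04, and lay between -0.72 (without DES A) and 0.48 (without CO A) with a section left out. Without the filter on low counts the list had 18 tested members, of which 3 rose and 5 fell, with a median of -1.04. Its most abundant members did not pass. Ltf, lactotransferrin, was at 2575 and 550 CPM in CO and at 1421 and 326 CPM in DES, with overlapping groups. Lcn2, lipocalin 2, was at 4380 and 396 CPM in CO and at 618 and 242 CPM in DES, and also overlapped.

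Smooth muscle and actin cytoskeleton genes gave 11 rises and no fall. Acta2, smooth muscle actin (chr19:34241090-34255590, minus strand), was at 235 and 128 CPM in CO and at 1381 and 3424 CPM in DES stromal spots. Its UMIs lay in 191 of 211 and in 123 of 132 DES spots, and the most in any DES spot was 42. The log2 fold change was 3.73 ± 0.57, with an adjusted p of 0.033 and of 0.0767 without CO B. Myl9, the regulatory myosin light chain, was at 478 and 388 CPM in CO and at 1992 and 4168 CPM in DES. Tagln, an actin-binding calponin relative, was at 75.2 and 61.8 CPM in CO and at 465 and 1175 CPM in DES. For each of the 3 genes DES B was the highest section and the groups did not overlap.

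Lmod1, a leiomodin that builds actin filaments, rose by 3.13 on the log2 scale. Jph2, which ties the sarcoplasmic reticulum to the surface membrane, rose from 9.0 and 6.5 CPM to 72.9 and 185 CPM. Mybpc1, a myosin-binding protein, rose by 4.26, and the small heat shock proteins Hspb1 and Hspb7 by 2.06 and 2.83. Of the 12-gene muscle list 11 were tested and 4 passed, namely Acta2, Tagln, Myl9 and Lmod1. The median log2 fold change was 2.82 and 11 of 11 were above 0. The number that passed was 0 without CO B (9 higher at an unadjusted p under 0.05), 2 without DES B and 8 without DES A. In the spots with the highest stromal score, which was lowered by muscle markers, 1 passed and the median was 0.68.

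The muscle list's median had opposite signs inside and outside the stromal spots. In the other spots 10 of the 11 list members were lower in DES, with a median log2 fold change of -2.05. Acta2 was at 4505 and 4706 CPM in the other CO spots and at 1234 and 1369 CPM in the other DES spots. The spot clusters were formed on these same counts, so the p-values of the interaction test are likely too small. With that limit, all 11 passed it toward a higher value in DES stromal spots, 10 of them also by DESeq2. The spots are mixed, and whether these UMIs came from muscle cells among the stromal spots or from other cells was not tested. Among the annotated cell types of the single-cell libraries, Acta2, Tagln, Myl9 and Lmod1 were highest in CO myocytes. These were 85 cells of the CO library, in which 20134 cells had no annotation and were left out.

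Matrix and matrix-binding genes gave 10 rises and 2 falls. Mgp, matrix Gla protein, an inhibitor of calcification (chr6:136872435-136875823, minus strand), was at 85.9 and 262 CPM in CO and at 1992 and 1891 CPM in DES stromal spots. The DES sections were close to each other and above both CO sections, and the log2 fold change was 3.42 ± 0.53, with an adjusted p of 0.033 and of 0.0517 without DES A. Hmcn2, hemicentin 2, a giant matrix protein, was at 7.2 and 14.1 CPM in CO and at 521 and 245 CPM in DES. Its log2 fold change was 5.02 ± 0.50, with an adjusted p of 0.0102. Among the annotated cell types of the single-cell libraries, Hmcn2 was highest in CO myocytes, at 85.7 CPM against 6.73 CPM in CO stromal cells. Mgp was highest in DES mesothelial cells. Whether these rises came from muscle or other cells among the stromal spots was not tested.

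Prelp, a small leucine-rich proteoglycan of basement membranes, rose from 1.8 and 21.7 CPM to 211 and 193 CPM. Smoc1, a calcium-binding matricellular protein, rose from 21.5 and 17.3 CPM to 147 and 104 CPM. Tnc, tenascin C, which marks remodelling matrix, had 3 and 5 UMIs in CO against 106 and 10 UMIs in DES, so DES A carried most of its UMIs, and without DES A the adjusted p was 0.704. The latent TGF-beta binding proteins Ltbp1 and Ltbp2 rose by 1.88 and 3.58 on the log2 scale. Spon2, spondin 2, a secreted matrix protein, fell from 1252 and 994 CPM to 188 and 179 CPM, a log2 fold change of -2.66 ± 0.32. Hpse, heparanase, which cuts heparan sulfate chains, fell by 3.63 on the log2 scale.

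Most genes of the fibrillar matrix did not pass. Of 31 collagen, elastic fibre and matrix genes tested, Tnc rose and Spon2 fell, and the median log2 fold change was 0.00. At an unadjusted p under 0.05, 6 were higher and 4 lower, against 628 and 566 of the 8914 genes tested. Without DES A none of the 31 passed, with 0 higher and 4 lower at an unadjusted p under 0.05. Col1a2, a chain of type I collagen, was at 2210 and 2327 CPM in CO and at 4190 and 2413 CPM in DES, a log2 fold change of 0.48 ± 0.34 with an adjusted p of 0.636. In the other spots 9 of the 31 were lower in DES and the median was -0.93, and 14 of 31 passed the interaction test toward a higher value in DES stromal spots. Dcn, decorin, was at 3230 and 3038 CPM in CO and at 1249 and 817 CPM in DES, with an adjusted p of 0.0543. Lum, lumican, was at 405 and 390 CPM in CO and at 503 and 658 CPM in DES, with an adjusted p of 0.565. Of the 6 small leucine-rich proteoglycans tested Prelp passed, and the list's median was 0.88. Prelp's adjusted p was 0.0969 by DESeq2, 0.0749 without DES A, 0.0554 without DES B and 0.0928 in the spots of highest stromal score, and DESeq2 called Dcn lower, with an adjusted p of 0.000408.

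Genes for secreted signals and their regulators gave 11 rises and 7 falls. Igfbp2, a binding protein of insulin-like growth factors, was at 7.2 and 9.8 CPM in CO and at 144 and 289 CPM in DES, a log2 fold change of 4.56 ± 0.54 with an adjusted p of 0.0185. Dkk2, a Wnt antagonist, had 3 and 12 UMIs in CO and 251 and 27 UMIs in DES, or 247 and 77.9 CPM. Wnt4, a ligand active in the female tract, rose from 41.2 and 24.9 CPM to 148 and 124 CPM. In none of these did the groups overlap. Pdgfc, a ligand of PDGF receptors, Ptn, the growth factor pleiotrophin, and Nrtn, the GDNF-family ligand neurturin, rose by 1.98, 2.29 and 2.62 on the log2 scale. In the single-cell libraries Ptn was highest in CO myocytes, at 1140 CPM, against 494 CPM in DES epithelial and 19.4 CPM in CO stromal cells. Igfbp2 was highest there in DES epithelial cells, at 25.2 CPM, against 0.60 CPM in CO stromal cells. Its estimated epithelial share, defined further on, was 67.9% and 21.8% in the DES sections. In the other spots Igfbp2 was at 73.1 and 191 CPM in CO and at 196 and 350 CPM in DES. Which cells the rises of Ptn and Igfbp2 came from was not tested.

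Dkk2 and Wnt4 were the 2 of 20 tested Wnt genes that rose with a median of 0.49 (0 fell, with 1 lower at an unadjusted p under 0.05 and 0 by DESeq2). Without DES A 0 rose, with 4 at an unadjusted p under 0.05. Igfbp2, Pdgfc and Ptn were the 3 of 21 tested growth factor genes that rose with a median of 0.14 (0 fell, with 3 lower at an unadjusted p under 0.05 and 0 by DESeq2), and 1 rose without DES A, without DES B or without CO B, and by DESeq2.

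Among the falls, Angptl4, an inhibitor of lipoprotein lipase, dropped from 281 and 179 CPM to 45.3 and 37.5 CPM. Msc, musculin, a repressor of the helix-loop-helix family, had 21 and 60 UMIs in CO against 2 and 1 in DES, a ratio of 24.8 (95% interval 8.2 to 123) in favour of CO. Ednrb, an endothelin receptor, had 16 and 19 UMIs in CO against 1 and 0 in DES. Hgfac, the protease that activates hepatocyte growth factor, and Msx1, a homeobox factor, fell by 3.04 and 2.81 on the log2 scale. Their estimated epithelial share, defined further on, was 75.0% and 66.6% for Hgfac and 88.42% and 94.02% for Msx1 in the CO sections.

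Immunoglobulin UMIs were high in both DES sections and very uneven. Ighg2c, the constant region of IgG2c, had 0 and 14 UMIs in CO and 411 and 1897 UMIs in DES. A single spot held 385 of the 411 UMIs in DES A, and another held 946 of the 1897 in DES B. The log2 fold change was 8.40 ± 1.52 with an adjusted p of 0.0392, which was 0.0736 by DESeq2 and 0.0665 without CO B. Reads that other IgG constant genes share cannot be assigned to Ighg2c alone, so its own level is uncertain. Of the 16 immunoglobulin and plasma cell genes 12 were tested and Ighg2c alone passed, with 8 higher at an unadjusted p under 0.05, 0 by DESeq2 and a median log2 fold change of 3.82. Without DES A 5 passed, and without CO B 3. The list summed to 870 and 5717 CPM in CO and to 17408 and 76781 CPM in DES. Igha, the heavy chain of IgA, had 3 UMIs in CO A and 3012 in CO B, so the CO sections were themselves far apart. With immunoglobulin genes left out before scaling 151 genes passed, among them 130 of the 131. Mpo, a granule enzyme of neutrophils, rose from 3.6 and 8.7 CPM to 42.3 and 52.0 CPM.

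Interferon-response genes made up 19 of the 60 falls. Interferons act through transcription factors on promoters that carry an interferon-stimulated response element, whose core repeats GAAA. The letters GAAA, followed after 2 bases of any kind by GAAA again, were searched on both strands in the 250 bases before the start of each gene in RefSeq's GRCm38.p6 promoters. Of the 14 members of the interferon list that fell, 10 had a promoter in the table and 6 of these held the letters. The windows of 5 of the 6 are shown here, since the letters are what these promoters have in common. Capitals mark the bases of each match, and overlapping matches run together. The 30-base windows are written on the gene's strand.
Isg15, chr4:156200871-156200900, minus strand: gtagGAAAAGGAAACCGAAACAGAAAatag
Ifit1, chr19:34640784-34640813, plus strand: gTTTCACTTTCcagtctcagTTTCAGTTTC
Oas1a, chr5:120907526-120907555, minus strand: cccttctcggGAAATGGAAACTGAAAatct
Rsad2, chr12:26456553-26456582, minus strand: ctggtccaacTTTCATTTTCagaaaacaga
Stat2, chr10:128270266-128270295, plus strand: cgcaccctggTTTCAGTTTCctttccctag

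The same letters stood in 3.46% of all 27025 promoters and in 215 of the 6756 tested genes with a promoter (3.18%). They stood in 3 of 9 interferon-list genes that were tested and did not pass, in 1 of 51 genes that rose and in 2 of 30 other genes that fell. A match is a run of letters and not evidence of binding.

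Isg15, a ubiquitin-like protein attached to other proteins in the antiviral state, was at 421 and 411 CPM in CO and at 19.7 and 43.3 CPM in DES stromal spots. The CO sections were alike and far above both DES sections, and the log2 fold change was -3.88 ± 0.45 with an adjusted p of 0.0185 and of 0.0536 without DES A. Ifit3, an RNA-binding antiviral protein, was at 75.2 and 106 CPM in CO and at 8.9 and 2.9 CPM in DES. Ifit1, of the same family, had 16 and 28 UMIs in CO and 2 and 0 in DES, and Ifit2 had 13 and 24 UMIs in CO and 1 and 0 in DES. Rsad2, viperin, had 12 and 30 UMIs in CO and none in DES, and was at least 12.9-fold lower, or 3.27-fold without DES A.

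Some sensors and regulators of the pathway were among the genes that fell. Irf7, the transcription factor that amplifies the type I response, was at 222 and 495 CPM in CO and at 69.9 and 49.1 CPM in DES. Stat2, the signal transducer, was at 102 and 118 CPM in CO and at 21.7 and 20.2 CPM in DES. Oas2 and Oas1a, which make the activator of RNase L, fell by 3.62 and 3.16 on the log2 scale. Zbp1, a sensor of Z-form nucleic acid, Usp18, which removes Isg15 from proteins, and Dhx58, an RNA helicase sensor, fell by 2.66, 2.89 and 3.19. Ifitm1, a membrane protein that blocks virus entry, was the most abundant fall of the group, at 344 and 718 CPM in CO and at 59.1 and 75.1 CPM in DES.

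Of the 26 interferon-list genes tested of 28, 14 fell, none rose and all 26 were below 0, with a median log2 fold change of -2.49 against 0.00 over all genes tested. In 25 of the 26 the groups did not overlap, as in 42.9% of all genes tested. Bst2, tetherin, was at 836 and 1082 CPM in CO and at 287 and 531 CPM in DES, with an adjusted p of 0.206. DESeq2 also gave 14 falls. The number was 0 without DES A (20 at an unadjusted p under 0.05), 5 without DES B, 9 without CO B, 18 without CO A and 4 in the spots of highest stromal score. The list's median lay between -2.68 and -2.00 in these settings.

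In the other spots 10 of 27 interferon-list genes were lower in DES, with a median of -1.37, and 6 passed the interaction test toward a larger fall in stromal spots. The summed list stood at 4236 and 6226 CPM in the stromal spots and at 2332 and 2420 CPM in the other spots of the CO sections. In the DES sections it stood at 1295 and 1400 CPM in stromal and at 1061 and 1509 CPM in other spots. Ifit1, the largest of the 6, had an interaction of -3.45 on the log2 scale.

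Cytotoxic cell genes fell with them. Gzmb, granzyme B, had 14 and 35 UMIs in CO and none in DES stromal spots, and was at least 15-fold lower, or 3.82-fold without DES A. Gzma, granzyme A, had 29 and 37 UMIs in CO and 1 in each DES section, a ratio of 30.3 (95% interval 8.07 to 256) in favour of CO, and of 15.4 (2.68 to 619) without DES A. These were the 2 of 5 tested members of the 13-gene list that fell, with 5 lower at an unadjusted p under 0.05 and a median log2 fold change of -4.25, or -3.91 with genes absent from DES at their bound. The filter on low counts lets in a gene that is high in 1 group only. Without it 13 were tested, 12 were below 0 and 1 above, 6 fell and the median was -3.69. The list summed to 204 and 181 CPM in CO and to 12.8 and 49.1 CPM in DES. Without DES A 0 fell (2 at an unadjusted p under 0.05), and without CO B 1.

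Genes of the vessel wall and basement membrane gave 7 falls and no rise. Gpihbp1, which holds lipoprotein lipase on capillary endothelium, had 48 and 114 UMIs in CO and 2 and 1 in DES, a ratio of 49.7 (95% interval 16.7 to 243) in favour of CO. Cd34, a surface sialomucin of vessels and some fibroblasts (chr1:194938819-194961279, plus strand), was at 401 and 302 CPM in CO and at 34.5 and 66.4 CPM in DES. The groups were far apart in both. Col4a1 and Col4a2, the paired chains of basement membrane collagen, were at 1135 and 1214 CPM and at 800 and 791 CPM in CO. In DES they were at 294 and 309 CPM and at 251 and 211 CPM, with log2 fold changes of -2.01 ± 0.31 and -1.83 ± 0.30. Col18a1, another basement membrane collagen, fell by 1.84.

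None of the 13 tested markers of endothelium and pericytes passed, with 4 lower at an unadjusted p under 0.05, 1 by DESeq2 and a median log2 fold change of -0.82. The list summed to 1407 and 1703 CPM in CO and to 622 and 1132 CPM in DES stromal spots. Rgs5, a pericyte marker, was at 405 and 425 CPM in CO and at 60.1 and 159 CPM in DES, with an adjusted p of 0.092.

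Enzymes, transporters and secreted proteins of the luminal epithelium gave 10 falls. C3, complement component 3, which estrogen raises in the uterine epithelium, was at 2822 and 2854 CPM in CO and at 217 and 300 CPM in DES stromal spots. Car2, carbonic anhydrase 2, was at 517 and 551 CPM in CO and at 36.4 and 20.2 CPM in DES. Kap, the kidney androgen-regulated protein, also made in the uterus, had 112 and 960 UMIs in CO and 2 and 1 in DES, a ratio of 329 (95% interval 112 to 1600) in favour of CO. Most of its UMIs came from CO B, and without that section the ratio was 91.0 (30.4 to 448). In the 3 genes the groups did not overlap. Trpv6, an epithelial calcium channel, fell by 2.32 and Anpep, aminopeptidase N, by 2.33 on the log2 scale. The 10 genes had an estimated epithelial share over 50% in both CO sections, as defined next.

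To describe how much of a change may come from epithelium, the epithelial share of the stromal spots' RNA was estimated in each section. It was the summed level of the 10 epithelial markers in stromal spots over that in keratin-rich spots, the 15% of other spots with the most simple keratin UMIs. It came to 36.7% and 32.9% for the CO sections and to 41.0% and 19.2% for the DES sections. A gene's share was this fraction times its CPM in keratin-rich spots over its CPM in stromal spots, with a ceiling of 100%. A gene made equally in both would have the share of its section. Keratin-rich spots also hold other cells, and for genes of those cells the share can be too high. No basal or squamous gene entered the markers or the choice of these spots, so for such genes the share may also be too low.

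By this estimate 29 of the 71 rises had a share over 50% in both DES sections, against 882 of the 8914 genes tested (9.89%). A further 9 rises had it in 1 section, 33 in neither, and 19 had at most 25% in both. The median share of the rises was 57.4% in DES A and 32.2% in DES B, against 43.7% and 22.4% over all genes tested. The 29 comprised 15 of the 19 squamous and basal rises, 7 of the 8 secretory rises, 1 of the 10 matrix rises, 1 of the 11 signal rises, 5 of the 10 unassigned rises and 0 of the 11 muscle rises. Krt5 had a share of 72.9% and 75.8%, and Olfm4 100% in both. Acta2 had 7.81% and 2.74%, Mgp 6.43% and 6.77%, and Hmcn2 6.58% and 3.06%.

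Of the 60 falls, 17 had a share over 50% in both CO sections, against 1260 of the genes tested (14.1%). The 17 comprised the 10 luminal falls, 3 of the 7 signal falls and 4 of the 13 unassigned falls. The median share of the falls was 21.6% in CO A and 17.2% in CO B, against 35.2% and 32.1% over all genes tested. C3 had 88.7% and 95.4% and Car2 95.4% and 100%, while Isg15 had 13.3% and 9.88%, Cd34 4.06% and 4.61%, and Spon2 4.69% and 4.36%. Of the 19 interferon and 7 vessel falls 0 were over 50% in both CO sections.

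**Figure D3:**
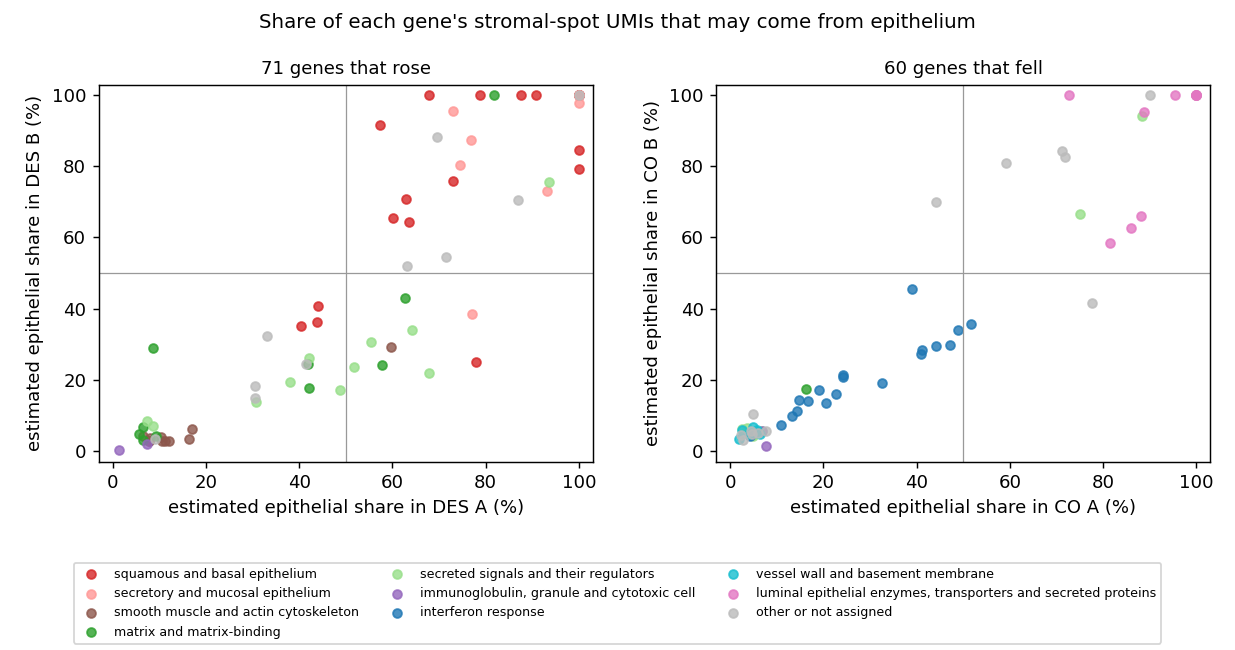
Estimated epithelial share (%) of the 71 rises in DES A and DES B (left) and of the 60 falls in CO A and CO B (right), coloured by function, with lines at 50%. Above both lines lie 29 rises, mostly squamous and secretory genes, and 17 falls, while the muscle rises and the vessel falls lie near the origin.

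The estimate rests on the reference. With simple keratins as the measure 29 rises passed 50% in both, but with the annotated epithelial cells of the DES single-cell library as the reference 3 did, namely Pam, a peptide-amidating enzyme, Ptn and the sulfurtransferase Tst. That library was pooled from 4 DES mice, and its cells were dissociated before capture.

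The comparison was repeated in the low-epithelial spots. These were the 50% of each section's stromal spots with the lowest share of UMIs in the epithelial markers and simple keratins. No basal or squamous marker entered this order, so these spots can still hold basal or squamous cells. Of 6006 genes tested there, 62 (1.03%) were higher and 56 (0.932%) lower in DES. Of the 71 rises 50 could be tested, all 50 were above 0 and 39 passed, among them 12 of the 15 tested with a share over 50%. Of the 60 falls 52 could be tested, all 52 were below 0 and 43 passed. These genes were picked on sums that hold these same spots, so the repeat is not an independent test. Within the DES sections 27 of the 29 genes with a share over 50%, and 21 of the other 42 rises, had a lower CPM in these spots than in the rest of the stromal spots in both sections. The order of the spots and the share use the same epithelial markers, so this difference is partly built in and does not test the source. No count over all genes tested stands beside it. Krt5 was at 2849 CPM in the low-epithelial spots and at 4660 CPM in the rest for DES A, and at 717 and 1694 CPM for DES B. Acta2 went the other way, at 1617 and 1191 CPM for DES A and at 4070 and 2655 CPM for DES B.

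**Figure D4:**
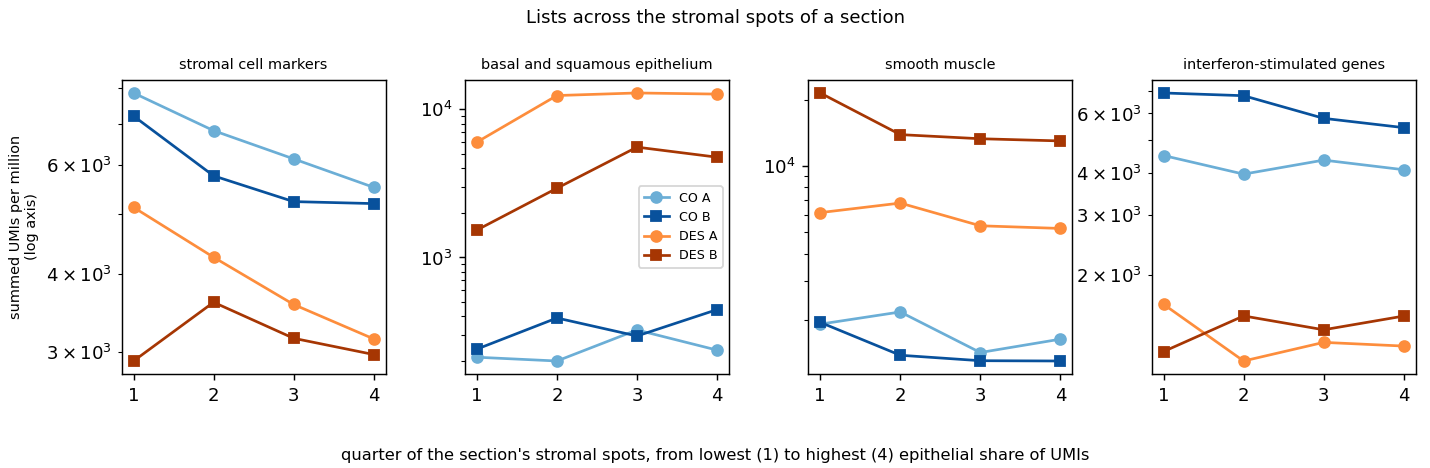
Summed CPM (log axis) of 4 gene lists in 4 equal groups of each section's stromal spots, with 1 line per section. The groups run from the lowest (1) to the highest (4) share of UMIs in the epithelial markers and simple keratins. In the DES sections basal and squamous genes are lowest in group 1 and highest in group 3, at 6009, 12396, 12902 and 12680 CPM in DES A and at 1532, 2934, 5559 and 4754 CPM in DES B from group 1 to group 4, and interferon-stimulated genes stand at 3968 to 6900 CPM in the CO and at 1111 to 1634 CPM in the DES groups.

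Whether the change in stromal spots was that of the whole section was asked with edgeR's interaction test. Of 13542 genes tested, 350 (2.58%) changed toward higher and 106 (0.783%) toward lower values in DES stromal spots than in the other spots. The spot clusters were formed on these counts, so these p-values are likely too small. Of the 71 rises 22 passed, all toward higher values in DES stromal spots, and of the 60 falls 5 did. None of the 29 rises with an epithelial share over 50% passed, with 3 at an unadjusted p under 0.05 and 0 by DESeq2. None of the 17 such falls passed either, with 5 unadjusted and 0 by DESeq2. For rises with 0 UMIs in CO stromal spots the interaction had a wide SE, as in Olfm4 (4.47 ± 3.26) and Nccrp1 (1.11 ± 3.32). Not passing there does not show an equal change. The 22 rises comprised 11 muscle genes, 6 matrix genes (Ccdc3, Smoc1, Mgp, Tnc, Prelp and Hmcn2), the signals Pdgfc, Ptn and Igfbp2, Ighg2c and the selenoprotein Selm. The 5 falls were the interferon genes Ifit1, Isg15, Ifi202b, Zbp1 and Irf7.

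The other spots, tested alone, gave 453 (3.25%) higher and 475 (3.41%) lower of 13921 genes. There 31 of the 71 rises and 42 of the 60 falls passed in the same direction. Of the rises 18 had the opposite sign in the other spots and 7 of these passed as falls, while no fall of the stromal spots had the opposite sign. Hmcn2 was at 145 and 172 CPM in the other CO spots and at 179 and 107 CPM in the other DES spots, with overlapping groups, and its interaction was 5.36 ± 0.35 on the log2 scale. Mgp rose in both, by 3.42 in stromal and 1.42 in other spots.

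**Figure D5:**
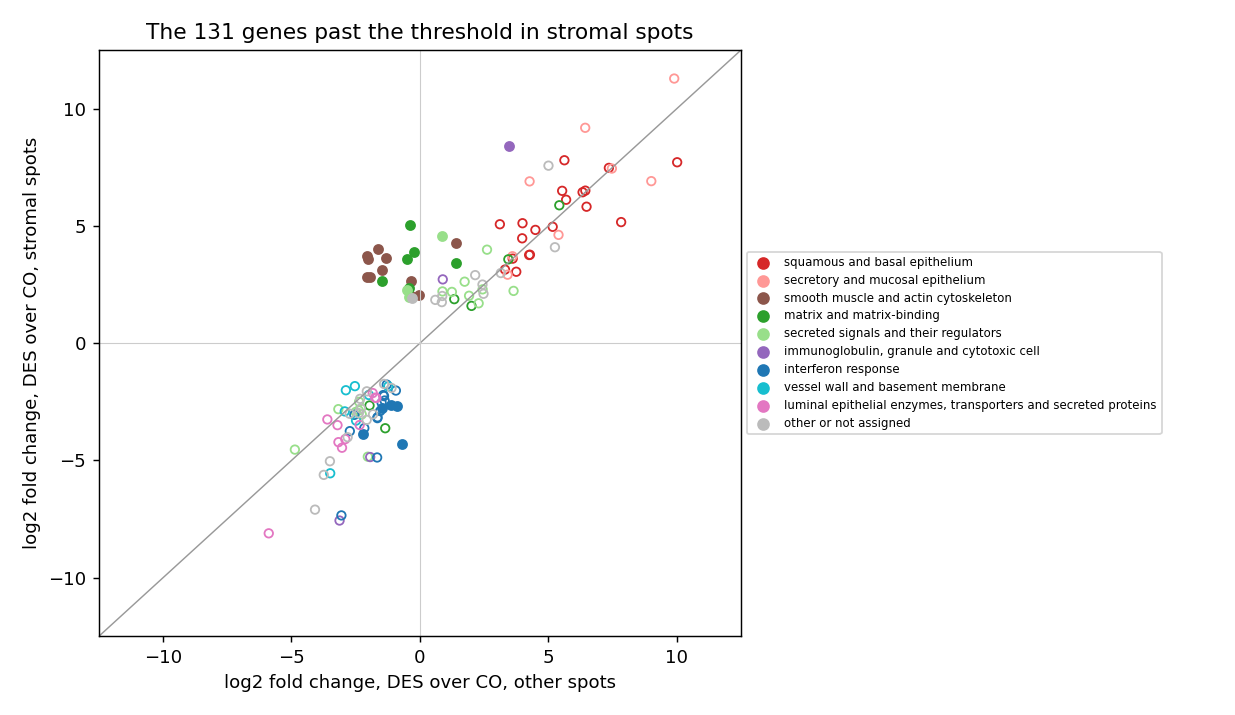
Log2 fold change, DES over CO, of the 131 genes in stromal spots (vertical) against the other spots (horizontal), coloured by function, with filled points for genes past the interaction test and the line of equal change. Of the 27 squamous and secretory rises 18 lie within 1 log2 unit of the line and the furthest is 2.75 from it. For rises with 0 UMIs in CO stromal spots, such as Muc5b, this distance has no firm value. Muscle rises stand at 2.01 to 4.26 in stromal spots, 10 of them under 0 in the other spots.

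Several programmes of the stroma showed no member past the threshold. Of 11 steroid receptor and mediator genes tested none passed, with 0 by DESeq2 and a median of 0.13. At an unadjusted p under 0.05, 2 were lower, as were 566 of the 8914 genes tested. Esr1, the main estrogen receptor, was at 295 and 205 CPM in CO and at 273 and 289 CPM in DES. Of the 12 stromal markers none passed, with 3 lower at an unadjusted p under 0.05, 2 by DESeq2 and a median of -0.31. Foxl2 was at 64.5 and 23.8 CPM in CO and at 32.5 and 37.5 CPM in DES, with overlapping groups. Of 60 nuclear genes of oxidative phosphorylation none passed, with 0 by DESeq2 and a median of 0.03. At an unadjusted p under 0.05, 4 were higher and 1 lower, against 628 and 566 of the 8914 genes tested.

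MHC class II genes, which present antigen, had 6 tested members, of which 0 passed in edgeR, 6 were higher at an unadjusted p under 0.05 and 4 passed in DESeq2, with a median of 1.68. Cd74, the invariant chain, was at 449 and 667 CPM in CO and at 1377 and 1735 CPM in DES, with an adjusted p of 0.0964. Its log2 fold change was 1.44 in stromal and 2.80 in other spots, and the interaction was -1.19 with an adjusted p of 0.0084. Of 12 MHC class I genes none passed, with 1 lower at an unadjusted p under 0.05, 1 by DESeq2 and a median of -0.44.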

How the data were processed

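The authors made the files with Space Ranger 1.2.2 (spots) and Cell Ranger 3.0.1 (cells) on mm10, after bcl2fastq 2.20.0.422, per the study's methods and the submitters' processing notes. The deposited values are raw UMI counts per gene and spot or cell, and the deposited spot clusters (10 per section) came from the authors' clustering. UMIs were summed over the stromal spots of each section and tested with edgeR 4.0.16 in R 4.3.3 (TMM factors, filterByExpr, quasi-likelihood test, Benjamini-Hochberg at 0.05). The interaction test used stromal and other sums with the section as a block. limma 3.58.1 was loaded by edgeR. The edgeR fit of the stromal sums was tested on simulated counts with 200 changed genes. The interaction and DESeq2 fits were not tested in this way. Alternatives were DESeq2 1.42.0, its size factors, no filter, each section left out, other choices of spots, thinning to 1 depth, and scaling without immunoglobulin genes.

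Sections were grouped by their labels. Gene positions came from GENCODE's mm10 annotation, and promoters from RefSeq's GRCm38.p6 table, which lists 27025 promoters. Intervals are exact 95% binomial intervals of the ratio of UMIs, and floors are 3 UMIs over a group. Both cover counting error only. The spots, lists and rule for named genes were chosen with earlier results of these data known. Genes picked for naming were the 8 largest and 8 most abundant changes in each direction, and the 8 largest among genes higher in stromal than in keratin-rich spots. Every list member that passed and the 2 most abundant of each list were picked too. Not every gene picked by these rules is printed here. Other genes were named after their values were seen. Functions were assigned to the 131 genes after the values were seen. With 4 sections of 1 mouse each, p-values rest on the spread between 2 mice per group. A gene and a promoter window are not reported here.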

Additional observations from a re-analysis of the deposited data

Results flagged for a closer look

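The change in stromal spots differed from that in the other spots for 456 genes by edgeR's interaction test, and among the named genes for the following, given as stromal minus other spots in log2. It stood further toward higher values in DES in stromal spots for the muscle genes Acta2 (5.61), Tagln (5.38), Jph2 (5.43), Fbxl22 (4.78), Myl9 (4.72), Lmod1 (4.50) and Mybpc1 (2.90). The same held for the matrix genes Hmcn2 (5.36), Prelp (4.20), Tnc (3.85), Mgp (2.09), Lum (2.02), Col6a3 (1.66) and Col1a2 (1.34). Lum, Col6a3 and Col1a2 did not pass in stromal spots, with log2 fold changes of 0.51, -0.19 and 0.48 there and of -1.57, -1.65 and -0.93 in the other spots. It also held for the growth factor genes Igfbp2 (3.78), Ptn (2.80), Pdgfc (2.38) and Igfbp6 (1.41, at -0.71 in stromal and -2.28 in other spots), for Ighg2c (4.32) and for the lipid droplet gene Plin4 (4.45), which had at most 4 UMIs in each of CO A, CO B and DES A. It stood further toward lower values in stromal spots for the interferon genes Ifit1 (-3.45), Isg15 (-1.74), Zbp1 (-1.61) and Irf7 (-1.33). The macrophage lysozyme Lyz2 (-1.67), Ltf (-1.23) and Cd74 (-1.19) did so too.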

How the results depend on the processing

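The 131 genes past the threshold became 714 with no filter on low counts, 71 in the spots of highest stromal score, 33 after thinning to the smallest total, and 40 to 357 with a section left out. The rises (71) became 368 with no filter, 18 after thinning and 38 to 158 with a section left out. The falls (60) became 346 with no filter, 21 by stromal score, 15 after thinning and 2 to 199 with a section left out. The interaction count (456) became 210 with DESeq2 and 328 to 646 with a section left out. The rises with an epithelial share over 50% (29) became 3 with the single-cell reference. Of the 131 genes, none of those tested changed direction in the 11 alternatives of the stromal test. DESeq2 gave 165 genes, 104 of them shared, and the low-epithelial 50% of stromal spots gave 118, 82 of them shared. No paired analysis was made, since each section came from its own mouse and no source used here says that a letter marks a shared batch. With 346412 UMIs in the smallest sum, genes at a few UMIs are limited by depth, and without DES A that sum stood alone for DES. The cause of these shifts was not tested.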
